A study of Mus musculus with 5 samples.

Results

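The step from 1 h to 1.5 h after neural induction was described in C17.2 cells, an established line of multipotent mouse neural stem cells, labelled as of strain background CD1 x C57BL/6. Open chromatin was profiled by ATAC-seq, in which a transposase inserts adapters where DNA is accessible. The 1 h and 1.5 h groups were each 1 library of 50000 nuclei. All libraries came from the same line, which grew with fetal bovine serum, and induction replaced that medium by Knockout DMEM with GlutaMAX and N2 supplement. Libraries of 0 h (the control, which bears the induction label too), 0.5 h and 2 h gave the history and the later state of each site. The table lists 34714 short sites at transcription start sites, with 8034 gene symbols, and gives a whole number for each library, read here as how many BED entries overlap the site. A site with at least 1 entry is called covered. A site was gained where it held 0 entries at 1 h and 1 or more at 1.5 h, and lost in the reverse case. By this rule 5578 of the 34714 sites, and 587 of the 8034 genes, were gained or lost. A gained site covered at 0 h is called regained, and one uncovered at 0 h a first gain. With 1 library per time there was no replicate error and no test, so each difference is between single libraries.

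In the nucleus, promoters of active genes are usually kept free of nucleosomes by bound transcription factors, remodelling enzymes and the transcription machinery, and this gap is what the transposase reaches. Most promoters of mammalian housekeeping genes lie in CpG islands and are open in nearly every cell type, whereas promoters of developmental regulators are often held by Polycomb proteins or open only in some lineages.

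The 2 libraries differed in their totals. At 1 h the sites held 45254 entries in all and 17769 sites were covered (51.2%), and at 1.5 h they held 65824 entries and 23223 sites were covered (66.9%). The mean number of entries of a covered site was 2.55 at 1 h and 2.83 at 1.5 h. The 0 h library, with 42527 entries, was close to that of 1 h, while the 0.5 h and 2 h libraries held 56773 and 59437. Read depth is unknown, and its part in any difference was not tested. Of the labelled cell type, 6 of 8 neural progenitor markers were measured, 2 were covered at 1 h and 4 at 1.5 h. Nes, which encodes nestin, held 0 entries at 1 h and 2 at 1.5 h, and Pax6 and Msi1 held 0 in every library. The summed entries of the 6 progenitor markers were 4, 9, 6, 11 and 9 over the 5 times. Both measured oligodendrocyte lineage markers, Olig1 and Olig2, held 0 throughout, while Map2 of neurons and Cx3cr1 of blood cells each held 2 in every library.

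Sequences around the start sites of 6 genes show what such promoters look like. Each is the 300-base RefSeq window (build GRCm38.p6) on the strand of the gene, with 250 bases before the annotated start and 50 from it onwards, and the deposited site stands in capitals, with its coordinates read as counted from 1. Mxra7 (chr11:116827997-116828296, minus strand) stands for sites uncovered at 0, 0.5 and 1 h, and Crlf2 (chr5:109558944-109559243, minus strand) for first gains that were also covered at 0.5 h. Adgrl3 (chr5:81020502-81020801, plus strand) and Baz2a (chr10:128092533-128092832, plus strand) were regained, and Fgfr1op (chr17:8165268-8165567, plus strand) and Adap1 (chr5:139325415-139325714, minus strand) were lost. Mxra7 was picked after its values were seen.
Mxra7: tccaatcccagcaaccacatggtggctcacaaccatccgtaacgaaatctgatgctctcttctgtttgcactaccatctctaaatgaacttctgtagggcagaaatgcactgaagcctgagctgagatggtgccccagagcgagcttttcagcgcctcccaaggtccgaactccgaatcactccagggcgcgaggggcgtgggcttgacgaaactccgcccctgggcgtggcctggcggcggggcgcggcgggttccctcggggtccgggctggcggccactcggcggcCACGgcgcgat
Crlf2: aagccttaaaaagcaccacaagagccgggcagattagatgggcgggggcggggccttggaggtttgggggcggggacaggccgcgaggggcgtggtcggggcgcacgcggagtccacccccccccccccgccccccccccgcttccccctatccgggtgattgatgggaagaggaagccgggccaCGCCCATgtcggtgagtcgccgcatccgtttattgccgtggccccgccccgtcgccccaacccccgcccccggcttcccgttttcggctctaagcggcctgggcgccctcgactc
Adgrl3: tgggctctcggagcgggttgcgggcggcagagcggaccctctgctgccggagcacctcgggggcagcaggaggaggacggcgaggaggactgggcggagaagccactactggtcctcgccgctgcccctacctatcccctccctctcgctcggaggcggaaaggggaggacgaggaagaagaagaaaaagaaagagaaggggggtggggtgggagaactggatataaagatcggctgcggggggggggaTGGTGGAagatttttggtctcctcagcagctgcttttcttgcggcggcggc
Baz2a: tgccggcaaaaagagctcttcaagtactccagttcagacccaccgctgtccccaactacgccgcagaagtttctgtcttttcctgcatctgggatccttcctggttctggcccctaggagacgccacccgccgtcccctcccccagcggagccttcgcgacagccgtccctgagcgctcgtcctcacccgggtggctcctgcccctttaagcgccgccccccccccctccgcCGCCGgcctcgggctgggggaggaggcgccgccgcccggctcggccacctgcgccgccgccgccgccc
Fgfr1op: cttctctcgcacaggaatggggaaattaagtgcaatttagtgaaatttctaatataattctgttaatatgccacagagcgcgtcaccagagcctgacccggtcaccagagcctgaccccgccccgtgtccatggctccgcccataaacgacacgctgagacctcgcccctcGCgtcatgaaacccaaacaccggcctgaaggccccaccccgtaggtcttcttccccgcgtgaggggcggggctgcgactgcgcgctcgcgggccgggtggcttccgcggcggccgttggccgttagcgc
Adap1: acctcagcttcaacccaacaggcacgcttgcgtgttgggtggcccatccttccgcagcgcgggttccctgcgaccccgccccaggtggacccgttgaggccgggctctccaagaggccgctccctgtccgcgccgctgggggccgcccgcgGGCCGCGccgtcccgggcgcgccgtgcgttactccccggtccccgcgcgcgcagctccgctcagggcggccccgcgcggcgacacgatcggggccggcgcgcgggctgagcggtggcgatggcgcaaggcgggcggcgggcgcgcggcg
The GC content of these windows was 62.7% for Mxra7, 71.7% for Crlf2, 64.7% for Adgrl3, 71% for Baz2a, 61.7% for Fgfr1op and 79% for Adap1. The window of Crlf2 held 6 matches to the GC box GGGCGG on either strand, and that of Adgrl3 held 2 such matches and 1 match to the TATA box TATAAA. In Adgrl3 the covered site ran from base 250 to base 256 of the window and so spanned the annotated start.

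Between 1 h and 1.5 h the change in coverage went almost all one way. Of the 34714 sites, 5516 were gained (15.9% of all sites) and 62 were lost (0.179%). The gains made up 32.6% of the 16945 sites uncovered at 1 h (Wilson 95% interval 31.9 to 33.3%), and the losses made up 0.349% of the 17769 covered ones (0.272 to 0.447%). These intervals cover counting over sites only, and neighbouring sites share their values. When sites within 500 bp of each other were merged into 9217 regions, 619 regions were gained and 21 lost. Under a rule chosen after seeing the data, a covered site needed 2 or more entries at 1.5 h but only 1 at 1 h. By it 4438 sites were gained and 1753 lost. Of these 1753 sites, 991 held 1 entry at both times and so did not change in number.

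**Figure D1:**
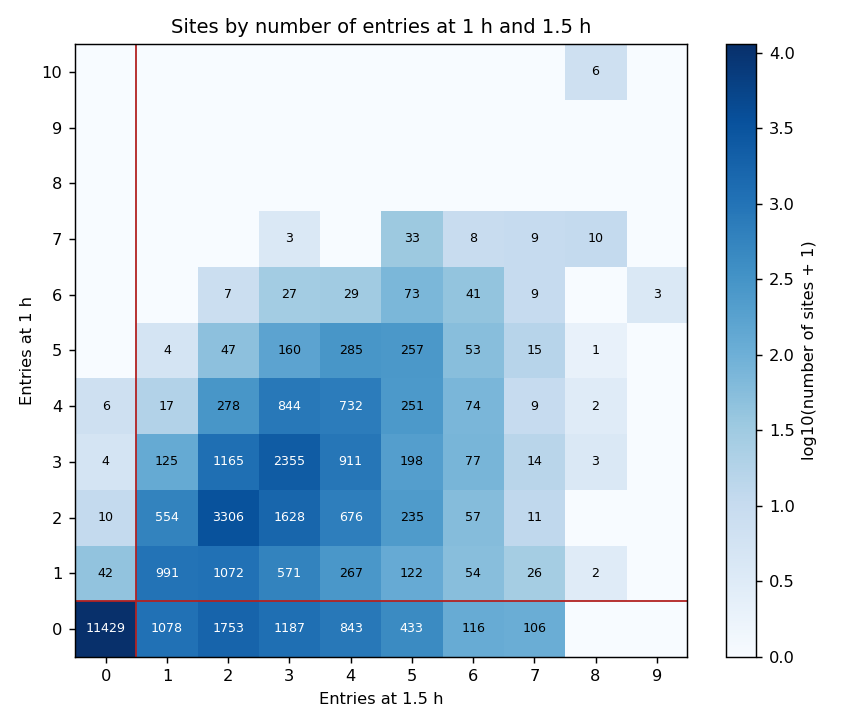
Number of sites by their entries at 1 h (vertical axis) and at 1.5 h (horizontal axis), with colour on a log10 scale; the red lines separate uncovered from covered. The bottom row right of the line holds the 5516 gained sites and the left column above the line the 62 lost ones.

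Most gained sites held more than the minimum of 1 entry. At 1.5 h, 1078 of them held 1 entry, 1753 held 2, 1187 held 3, 843 held 4, 433 held 5, 116 held 6 and 106 held 7. The lost sites had been low, with 42 of the 62 at 1 entry at 1 h, 10 at 2, 4 at 3 and 6 at 4. Among the 17707 sites covered at both times, 6351 (35.9%) held a larger number at 1.5 h, 3665 (20.7%) a smaller one and 7691 (43.4%) an equal one. By number of entries at 1 h, a grouping that itself favours larger numbers after low ones and smaller numbers after high ones, the shares were as follows. Of 3147 sites with 1 entry at 1 h, 67.2% had more at 1.5 h and 1.33% fewer, whereas of 822 sites with 5 entries, 8.39% had more and 60.3% fewer. The 6 sites with 10 entries at 1 h all held 8 at 1.5 h.

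First gains outnumbered regained sites. Of the 5516 gained sites, 4575 were uncovered at 0 h (82.9%) and 941 were covered there (17.1%). Counted in merged regions, the regained share was 39.6% of 619. At the site level 1918 of the 4575 first gains had been covered at 0.5 h, so that 2657 gained sites were uncovered in all 3 earlier libraries. Of those 2657 sites, 1966 were also covered at 2 h and 691 were covered at 1.5 h only. A further 676 sites were covered in every library but that of 1 h.

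**Figure D2:**
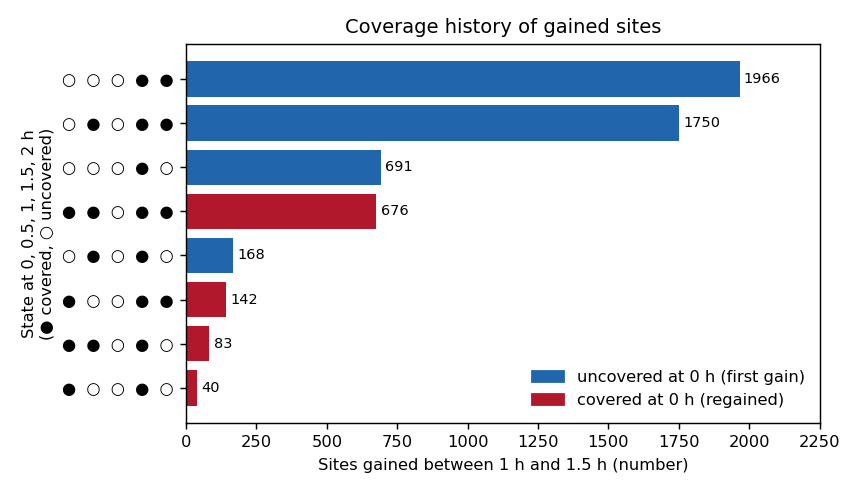
Number of sites gained between 1 h and 1.5 h for each pattern of coverage over the 5 times (filled circle, covered; open circle, uncovered), in blue where uncovered at 0 h and in red where covered at 0 h. The bars of 1966 sites first covered at 1.5 h and kept at 2 h, and of 1750 sites also covered at 0.5 h, are the longest.

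A site that had been covered earlier was more often covered again than a site that had not. Of the 1051 sites uncovered at 1 h but covered at 0 h, 941 were gained (89.5%), against 4575 of the 15894 uncovered at both of those times (28.8%). Of the 2874 sites covered at 0.5 h and uncovered at 1 h, 2677 were gained (93.1%). Of the 13821 sites uncovered at 0, 0.5 and 1 h, 2657 were gained (19.2%). Of the 941 regained sites, 417 held more entries at 1.5 h than at 0 h, 359 the same number and 165 fewer, and their mean was 2.10 at 0 h and 2.65 at 1.5 h. The sites covered at both 1 h and 1.5 h had means of 2.28 and 2.86 at the same times. Unlike the regained sites, they include sites uncovered at 0 h, so the differences of these sets cannot be compared.

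Most gained sites were still covered in the next library. At 2 h, 4534 of the 5516 gained sites were covered (82.2%), against 33 of the 62 lost sites (53.2%). The share covered at 2 h was 67.8% for gained sites with 1 entry at 1.5 h, 82.7% for those with 2 and 88.5% for those with 4 to 7. Among the sites covered at both 1 h and 1.5 h it was 99.2%. The mean of the gained sites, which were chosen for entries at 1.5 h, was 2.74 at 1.5 h and 2.12 at 2 h, beside 2.86 and 2.62 for sites covered at both times and 1.90 and 1.71 for all sites.

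The same counts in the other 3 steps give the setting. From 0 h to 0.5 h, 4181 sites were gained and 328 lost, and from 0.5 h to 1 h, 278 were gained and 2874 lost. From 1.5 h to 2 h, 687 were gained and 1120 lost. The step described here had the most gains and the fewest losses of these 4, but adjoining steps share a library and none has a replicate.

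Gains occurred beside covered sites and apart from them. Of the 5516 gained sites, 3631 lay in a merged region that already held a covered site at 1 h (65.8%), and 1885 lay in a region with none (34.2%). The median distance from a gained site to the nearest site covered at 1 h was 287 bp. Among the 3989 regions of 2 or more sites that were covered at both times, 1135 had more covered sites at 1.5 h (28.5%) and 15 had fewer. Counted over genes, 1718 had at least 1 gained site. In 1175 of them another site was covered at 1 h, and in 543 no site was. One gained region with no earlier coverage held 26 listed sites on chromosome 2 (167688764 to 167689940), with 0 entries at 0, 0.5 and 1 h, at most 3 at 1.5 h and 2 at 2 h. The table names its sites Tmem189 and Cebpb, a leucine zipper transcription factor, but the single Cebpb site held 0 in every library. The region was chosen after its values were seen.

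Position relative to the gene start was known for 25193 sites, through a RefSeq 5′ end of their gene. Of these sites 85.1% lay within 1000 bp of that end, and the others lay farther away. The median position was 148 bp downstream for gained sites, 55 bp for sites covered at both times and 219 bp for those uncovered at both. Of the gained sites, 31.6% lay 250 to 1000 bp downstream, against 19.6% of the sites covered at both times. In the 250 to 500 bp bin, 49.3% of 3899 sites were covered at 1 h and 70.6% at 1.5 h. Just upstream, within 100 bp of the 5′ end, the shares were 68.9% and 80.1% of 3623 sites. Among sites uncovered at 1 h, the gained share was 36.4% in that upstream bin, 42.2% at 250 to 500 bp, 27.6% at 750 to 1000 bp and 14.4% at 1000 to 2000 bp. Lost sites were few in every bin, with at most 15, at 500 to 750 bp downstream, and 12 at 100 to 250 bp.

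**Figure D3:**
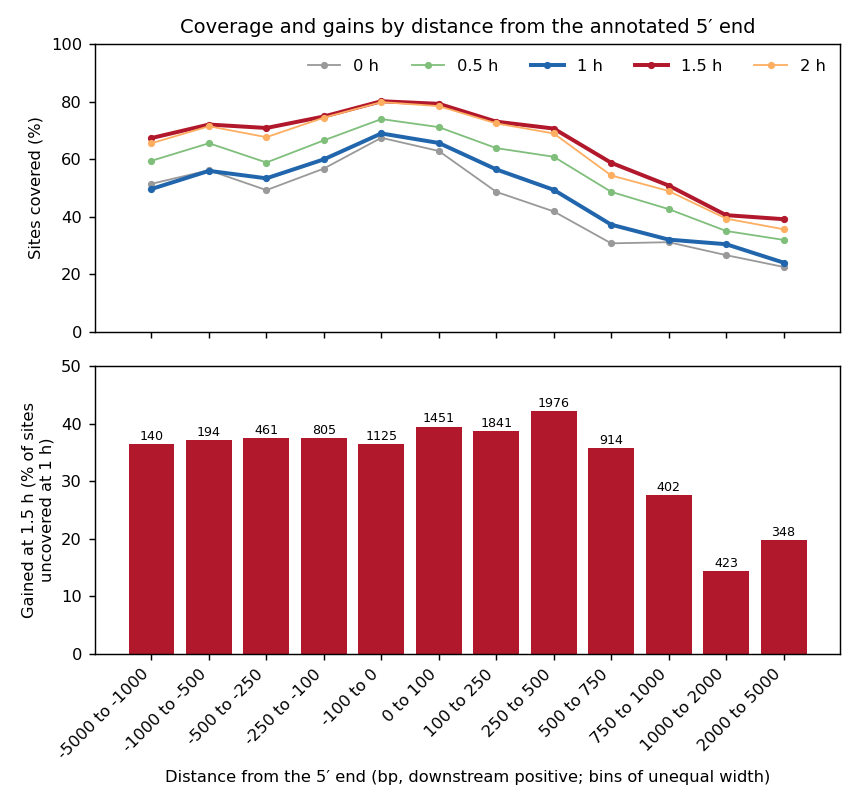
Top, share of sites covered in each library by distance from the annotated 5′ end of the gene, with 1 h in blue and 1.5 h in red; bottom, share of the sites uncovered at 1 h that were gained, with their number above each bar. The 1.5 h line lies above the 1 h line in every bin, and the gained share is 42.2% at 250 to 500 bp and 14.4% at 1000 to 2000 bp downstream. Sites more than 5000 bp from the 5′ end are not drawn.

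Gained promoters were richer in G and C than those covered at both times. Their shares of the CCAAT box and of an ETS motif were nearer to those of promoters uncovered at both. There were 3481 RefSeq windows that contained a listed site, of which 278 were gained, 2617 covered at both times, 581 uncovered at both and 5 lost, by the highest entry number inside the window. The median GC content was 75.2% in gained windows, 68.7% in windows covered at both times and 72% in windows uncovered at both, and it was 52.7% over all 32851 RefSeq windows. First gains had a median of 76.3% GC and 41 CpG dinucleotides per window, and regained windows 71% and 32.5. The CCAAT box, searched as CCAAT on both strands, was found in 45 of 278 gained windows (16.2%), in 20% of windows uncovered at both times, in 33.4% of those covered at both and in 37.4% of all RefSeq windows. Among gained windows it was in 12.5% of first gains and 25.6% of regained ones. An ETS motif, CCGGAAGT on both strands, was in 6 gained windows (2.16%), 1.55% of windows uncovered at both, 7.22% of windows covered at both and 3.89% of all. The GC box was in 88.5%, 85.9%, 85.8% and 35.7% of these sets, in the same order. The AP-1 motif TGANTCA was in 1.08% (3 windows), 2.41%, 2.98% and 7.81%, and the TATA box in 3.24%, 6.88%, 6.38% and 13.6%. For the ETS motif the gained share lay between those of uncovered and covered windows. For the CCAAT box, GC box, AP-1 motif and TATA box it lay outside that range, as did the median GC content. A match of letters is a description of the window and does not show binding.

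For counts of genes, each symbol was represented by the listed site whose mean over all 5 times was highest. Of 8034 genes, 571 were gained (7.11%) and 16 were lost (0.199%), and these shares are the background for every count of gene list members. The gained genes were 25.8% of the 2217 uncovered at 1 h (Wilson 95% interval 24.0 to 27.6%). They comprised 350 first gains, 162 of them also covered at 0.5 h, and 221 regained genes. At 1.5 h, 98 gained genes held 4 or more entries and 166 held 1. More entries at 1.5 h than at 1 h were found for 2458 genes (30.6%) and fewer for 1203 (15%). On the scale of log2(entries + 1), where differences of low genes come out too small, at least 2-fold higher were 871 genes (10.8%), and at least 2-fold lower were 95 (1.18%). As 0 to 1 entry is 2-fold on this scale, every gain and loss is among them. Scaled to equal library totals, 442 were higher and 222 lower, while the median of all genes moved from 0 to −0.18. Relative to that shifted median the numbers were 658 and 90. Among the 5801 genes covered at both times, the direction turned with scaling: unscaled, 300 were at least 2-fold higher and 79 lower, and scaled, 37 were higher and 206 lower, with a median of −0.36. Relative to the shifted median of all genes, 87 of them were higher and 85 lower.

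Among first gains, the 10 genes with most entries at 1.5 h included receptors, chromatin and signalling genes. Fzd8, a receptor for Wnt ligands, held 0 entries at 0, 0.5 and 1 h, 7 at 1.5 h and 7 at 2 h (chromosome 18, 9213688 to 9213691). It was the only one of the 10 that was uncovered in all 3 earlier libraries. Nr3c1, which encodes the receptor for glucocorticoid hormones, held 0, 5, 0, 7 and 7 entries at the successive times (chromosome 18, 39490589 to 39490596). Skil, whose protein represses SMAD-driven transcription, held 0, 1, 0, 7 and 4 (chromosome 3, 31094645). Kdm7a, a histone lysine demethylase, held 0, 3, 0, 7 and 6 at a site 812 bp downstream of its 5′ end (chromosome 6, 39205958 to 39205964). The merged region it shares with Gm49041 held 2, 3, 0, 7 and 6, so as a region it was covered at 0 h and regained. Crlf2, a cytokine receptor subunit whose window is printed above, held 0, 7, 0, 7 and 2. In these genes the 1 h library stood at 0 between 2 covered libraries, except for Fzd8.

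The other 5 first gains held 5 or 6 entries at 1.5 h. Zic5, a zinc finger factor of the developing brain, held 0, 5, 0, 6 and 6 entries (chromosome 14, 122464431 to 122464432). Pde3b, a phosphodiesterase that hydrolyses cyclic nucleotides, held 0, 4, 0, 6 and 5, but the merged region it shares with 4933406I18Rik held 1, 4, 1, 6 and 5 and was thus covered at 1 h. Usp9x, a deubiquitinase of the X chromosome, held 0, 3, 0, 6 and 5. Both remaining genes act on sphingomyelin metabolism or signalling: Nsmaf, an adaptor linked to neutral sphingomyelinase, held 0, 5, 0, 5 and 5, and Sgms1, a sphingomyelin synthase, held 0, 4, 0, 5 and 6.

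Of the 221 regained genes, 186 were covered at 0.5 h too, and at 1.5 h 53 held 1 entry and 75 held 2. The 10 named here are those with most entries at 1.5 h. Setd7, a lysine methyltransferase, held 7, 6, 0, 6 and 7 entries over the 5 times, 448 bp downstream of its 5′ end (chromosome 3, 51560375 to 51560376). Adgrl3, an adhesion receptor of the latrophilin family found at synapses, held 7, 8, 0, 5 and 7 at its start. Baz2a, a subunit of a complex that silences ribosomal DNA, held 5, 6, 0, 6 and 2 at a site 16 bp upstream of its start. In these 3 genes the number at 1.5 h was within 2 entries of that at 0 h.

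In Sox4, a transcription factor of the SoxC group active in new neurons, the number at 1.5 h was above that of the other libraries, with 2, 2, 0, 6 and 3 entries (chromosome 13, 28953132 to 28953134). Rybp, a component of Polycomb repressive complexes, held 3, 4, 0, 7 and 4, and another of its 30 sites was covered at 1 h. Tsc22d2 held 1, 6, 0, 7 and 8, and Pde7a, a phosphodiesterase of cyclic AMP, held 2, 3, 0, 6 and 5. Cobll1 held 5, 4, 0, 6 and 5, and the deubiquitinase gene Usp24 held 3, 3, 0, 6 and 4. Kifc3, a kinesin that moves towards microtubule minus ends, held 7, 8, 0, 5 and 1, so its coverage at 1.5 h was mostly gone again at 2 h. In Tsc22d2, Cobll1, Baz2a and Usp24 too another site of the gene was covered at 1 h, with at most 2, 3, 1 and 2 entries.

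Few genes were lost and their numbers were low. Eif4a1, an RNA helicase of translation initiation, held 0, 3, 3, 0 and 0 entries over the 5 times, 658 bp downstream of its 5′ end (chromosome 11, 69671764 to 69671766). Kif5c, a kinesin heavy chain of neurons, held 3, 3, 2, 0 and 0. Gpc4, a heparan sulfate proteoglycan of the cell surface, held 1, 0, 2, 0 and 0. Hoxc5, a homeobox gene, held 3, 1, 2, 0 and 2, while its merged region still held 1 at 1.5 h, and the kinase gene Lrrk1 held 2, 2, 2, 0 and 2. These 5 were the only lost genes with 2 or more entries at 1 h.

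The other 11 lost genes had 1 entry at 1 h. Penk, which encodes the precursor of the enkephalin opioid peptides, held 0, 0, 1, 0 and 0, at a site 54 bp from that of A830012C17Rik, which held the same. Gnasas1, an antisense RNA of the Gnas locus, held 0, 0, 1, 0 and 0, and strand was not used. Fgfr1op, a centrosomal protein gene, held 0, 1, 1, 0 and 0. Adap1, a GTPase-activating protein for Arf GTPases, and H3c10, 1 of several near-identical histone H3 genes whose reads may be split, each held 0, 1, 1, 0 and 2. Outside the rule for naming, and added after their values were seen, Cic, a transcriptional repressor, held 7, 1, 1, 0 and 0, Chga, which encodes chromogranin A, held 1, 2, 1, 0 and 2, and Zdhhc18 held 0, 3, 1, 0 and 2. Differences between 1 entry and 0 are the smallest the table can hold.

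The genes covered at both times with the highest ratio, on unscaled entries, had 1 entry at 1 h. Svil, which encodes the actin-binding protein supervillin, held 8, 7, 1, 8 and 1 entries at the successive times. Pfn1, an actin monomer-binding protein gene, held 0, 0, 1, 7 and 0, and the merged region it shares with Gm12319 held 1, 4, 2, 7 and 4. Foxp1, a forkhead transcription factor, held 2, 7, 1, 7 and 7, while the highest of its 14 sites held 3 at 1 h. Polr2l, a small subunit of RNA polymerases, and Tspan4, a tetraspanin, have sites 313 bp apart and both held 1, 7, 1, 7 and 2, so they count as 1 region. Ubr3, a ubiquitin ligase gene, held 1, 1, 1, 7 and 4, and Ubqln2, a carrier of ubiquitinated proteins, 2, 2, 1, 7 and 5. Pex14, of the peroxisomal import machinery, held 2, 6, 1, 6 and 5.

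The genes with the lowest ratio had their highest or joint highest value at 1 h. Ypel1 held 2, 4, 5, 1 and 2 entries. Trio, a guanine nucleotide exchange factor in axon guidance, held 2, 3, 4, 1 and 2, and Ppp1r12a, the myosin phosphatase targeting subunit, held 4, 2, 4, 1 and 2. Ccny, a membrane-bound cyclin gene, held 4, 2, 4, 1 and 2, and Hyou1, a chaperone of the endoplasmic reticulum, held 3, 3, 4, 1 and 2. Ube2d2a, a ubiquitin-conjugating enzyme, held 2, 2, 6, 2 and 3, and Spsb1 held 2, 4, 6, 2 and 2. Cpsf1, of the mRNA cleavage and polyadenylation complex, held 1, 1, 3, 1 and 1.

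**Figure D4:**
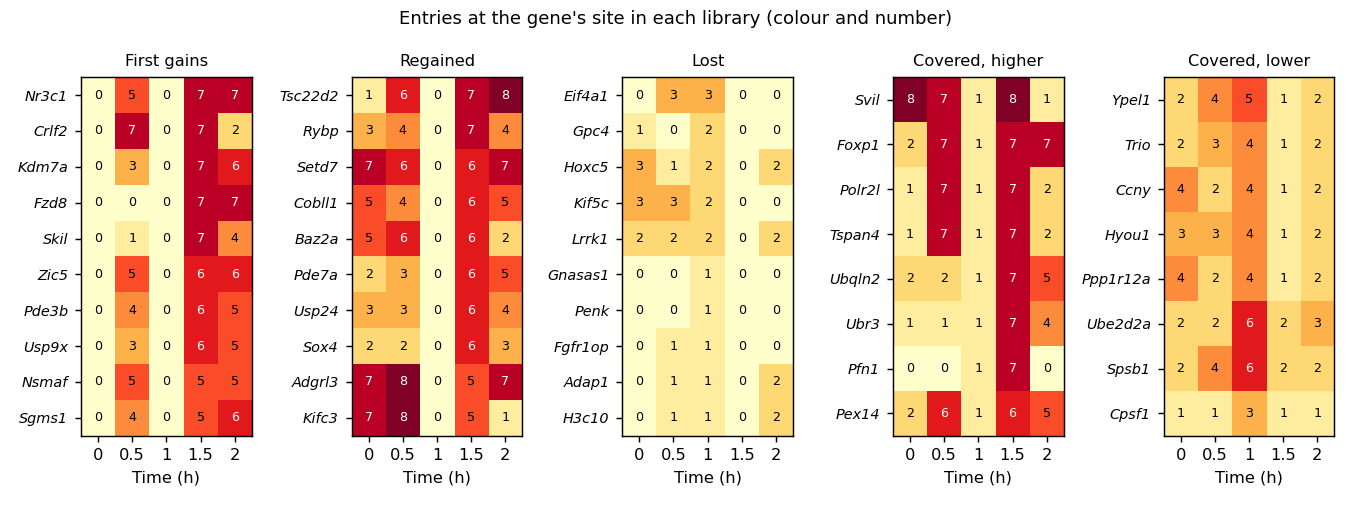
Entries at the site of each named gene (rows) in the 5 libraries (columns, time in h), by group: first gains, regained, lost, and covered genes with the highest and lowest ratio of 1.5 h to 1 h. In first gains and regained genes the 1 h column is 0 by definition and the 1.5 h column lies between 5 and 7.

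Gene lists were described by how many measured members were gained, set beside 7.11% of all genes and 25.8% of the genes uncovered at 1 h. Numbers of members with more or fewer entries are unscaled and stand beside 30.6% and 15% of all genes. Enzymes that write or erase histone methylation, which mark active and silent chromatin, had many gains. Of 17 measured lysine demethylase genes, 5 were gained of 6 uncovered at 1 h. Entries were higher in 10 and lower in 1, and the median log2 difference was 0.58 against 0 over all genes. Beside Kdm7a these were Kdm5b with 0, 1, 0, 4 and 1 entries over the times, Kdm5a with 4, 4, 0, 4 and 0, Kdm6b with 4, 0, 0, 4 and 0, and Kdm2b with 2, 2, 0, 2 and 1. Kdm6b removes a Polycomb mark from histone H3, and Kdm5a and Kdm5b act on the promoter mark of active genes.

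Of 24 lysine methyltransferase genes, 6 were gained of 7 uncovered at 1 h. Entries were higher in 11 of the 24 and lower in 3. Beside Setd7, Kmt2d, a methyltransferase of enhancers, held 0, 3, 0, 4 and 0 entries (chromosome 15, 98871632 to 98871639). Nsd1 held 5, 0, 0, 3 and 4 and was thus uncovered at both 0.5 h and 1 h. Kmt2b, of the same family as Kmt2d, held 0, 0, 0, 2 and 0. Both the demethylase and the methyltransferase counts were the same when a gene took its highest site in each library, a choice made after seeing the data.

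Of 39 genes of chromatin remodelling complexes, 6 were gained of 8 uncovered, and 16 had more entries and 5 fewer. Smarca2, an ATPase of the BAF complexes, held 0, 1, 0, 5 and 2 entries, Mta3, of the NuRD complex, held 3, 5, 0, 4 and 3, and Brd7, a bromodomain subunit, held 0, 3, 1, 5 and 3. With the highest site of each gene, 4 of the 39 were gained, since 2 regained members, Baz2a among them, had another site covered at 1 h. Of 26 genes of Polycomb complexes and DNA methylation, 3 were gained of 4 uncovered, and 12 had more and 6 fewer entries, with Phc1 at 2, 5, 1, 5 and 4. Of 19 acetyltransferase and deacetylase genes, 2 were gained, 4 had more entries and 5 fewer. Hdac7, a deacetylase, held 2, 2, 0, 5 and 4, at a site 6 bp from its 5′ end.

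No list had a lost member, and losses were 0.199% of all genes. Of 39 genes of the TGF-beta and BMP pathway, 8 were gained of 14 uncovered at 1 h and 0 lost, while entries were higher in 18 and lower in 1. With the highest site of each gene 7 were gained. Among the ligands and their binders, Ltbp1, which holds latent TGF-beta in the matrix, held 5, 3, 0, 4 and 3 entries, Tgfb1 held 4, 3, 0, 1 and 1, and Nog, a secreted BMP antagonist, held 0, 1, 0, 4 and 1. The receptor gene Bmpr1a held 2, 3, 0, 3 and 2. Among regulators inside the cell, Smurf2, a ubiquitin ligase of the pathway, held 0, 4, 0, 5 and 5, Tgif2, a repressor, held 3, 3, 0, 4 and 0, and the signal carrier Smad5 held 2, 5, 2, 6 and 4.

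Of 46 Wnt pathway genes, 5 were gained of 18 uncovered (27.8%, near the 25.8% of all genes), all first gains, and 17 had more entries and 2 fewer. Beside Fzd8, the poly-ADP-ribose polymerase gene Tnks held 0, 0, 0, 3 and 5 entries and its paralogue Tnks2 held 4, 5, 3, 6 and 3. The ligand gene Wnt7b held 0, 0, 0, 2 and 2, and Wnt5a held 6, 4, 1, 5 and 3. Of 30 Notch genes, 3 were gained (2 with the highest site of each gene), with 12 having more and 3 fewer entries: Rfng, a glycosyltransferase of the receptor, held 1, 1, 0, 3 and 2, Mib1, a ubiquitin ligase of the ligands, held 2, 1, 0, 3 and 0, and Notch1 held 0, 1, 0, 1 and 3.

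Of 35 genes of insulin, PI3K and mTOR signalling, 19 had more entries and 6 fewer (median log2 difference 0.32), and all 3 uncovered at 1 h were gained, which is 8.57% of the members beside 7.11% of all genes. With the highest site of each gene, 2 were uncovered and gained. Akt1, a central kinase of this pathway, held 5, 5, 0, 4 and 0 entries, 117 bp upstream of its 5′ end, and Rps6kb1, the ribosomal S6 kinase gene, held 2, 2, 0, 3 and 3. Rictor, of the second mTOR complex, held 2, 4, 2, 5 and 7, and the receptor gene Igf1r held 4, 3, 2, 5 and 4. Of 27 FoxO factors and growth factor withdrawal targets, 0 were gained, 11 had more and 4 fewer entries, and only 1 was uncovered at 1 h. Of 31 nuclear receptors and coregulators, 5 were gained of 12 uncovered, and entries were higher in 12 and lower in 2. Beside Nr3c1, Rarg, a retinoic acid receptor, held 1, 1, 0, 5 and 0, and the thyroid hormone receptor gene Thra held 2, 3, 0, 3 and 3. Ppargc1b, a coactivator, held 4, 4, 1, 6 and 4.

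Gained genes of the neural lineage held 1 to 6 entries at 1.5 h, beside 1 to 7 over all gained genes. Of 28 proneural and neuronal transcription factor genes, 7 were gained of 18 uncovered at 1 h and 0 were lost, while entries were higher in 11 and lower in 1. Sox4 apart, the gained members held 1 or 2 entries at 1.5 h. Ebf1, a factor of neuronal differentiation, held 0, 2, 0, 2 and 2, and Eomes, of intermediate progenitors, held 0, 1, 0, 2 and 2. Tcf12, a partner of such factors, held 2, 4, 2, 5 and 3. Of 32 neural progenitor genes, 5 were gained of 16 uncovered (31.2%, near the 25.8% of all genes), and 12 had more entries and 1 fewer. The gains were first gains: Zic5, Sox21 with 0, 1, 0, 3 and 1, Nes with 0, 0, 0, 2 and 0, Lin28b with 0, 1, 0, 2 and 1, and Notch1.

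Of 34 genes of the neuronal cytoskeleton and synapse, 2 were gained of 17 uncovered, a share of 11.8%, and 7 had more entries and 3 fewer. Homer1, a scaffold of synapses, held 1, 4, 1, 4 and 4 entries. Of 41 immediate early genes, which respond within minutes to signals, 2 were gained, 14 had more entries and 8 fewer. They were Jun, an AP-1 subunit, with 0, 6, 0, 5 and 0 entries at a site 674 bp downstream of its 5′ end (chromosome 4, 95051546 to 95051551), and the antiproliferative gene Btg1 with 0, 2, 0, 3 and 2. Of 53 genes of cell adhesion and the actin cytoskeleton, 5 were gained, all regained, and 24 had more and 11 fewer entries. Arhgef2, a guanine nucleotide exchange factor, held 2, 0, 0, 3 and 1 and the integrin gene Itgb5 held 2, 2, 0, 3 and 3. With the highest site of each gene 4 were gained.

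Genes of mitochondria and central metabolism had more entries in 15% to 22.7% of members, against 30.6% of all genes. Of 22 genes of the respiratory chain, all covered at both times, 5 had more entries, 9 fewer and 8 equal numbers. Of 40 genes of mitochondrial import, ribosomes and RNA handling, 0 were gained or lost, 6 had more entries and 8 fewer. Of 25 genes of glycolysis and the citrate cycle, entries were higher in 5 and lower in 5, and Pkm, a pyruvate kinase, was gained with 1, 2, 0, 3 and 0. These lists had few genes to gain, since 0, 2 and 3 members were uncovered at 1 h. Among 27 genes of the entry into S phase, entries were higher in 13 and lower in 2, and both uncovered members were gained: E2f3 with 0, 3, 0, 2 and 0 and E2f2 with 0, 1, 0, 2 and 1. E2f4, a repressor of the same family, held 3, 3, 1, 6 and 2. Of 9 astrocyte and oligodendrocyte genes 1 was gained, and of 4 genes of mesenchymal, endothelial, epithelial and blood cells 1, Runx2, was gained. Runx2 held 0, 4, 0, 4 and 7 entries, at a site 78462 bp downstream of its 5′ end. With the highest site of each gene, 0 of those 4 were gained. The part of other cells in the result was not tested.

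**Figure D5:**
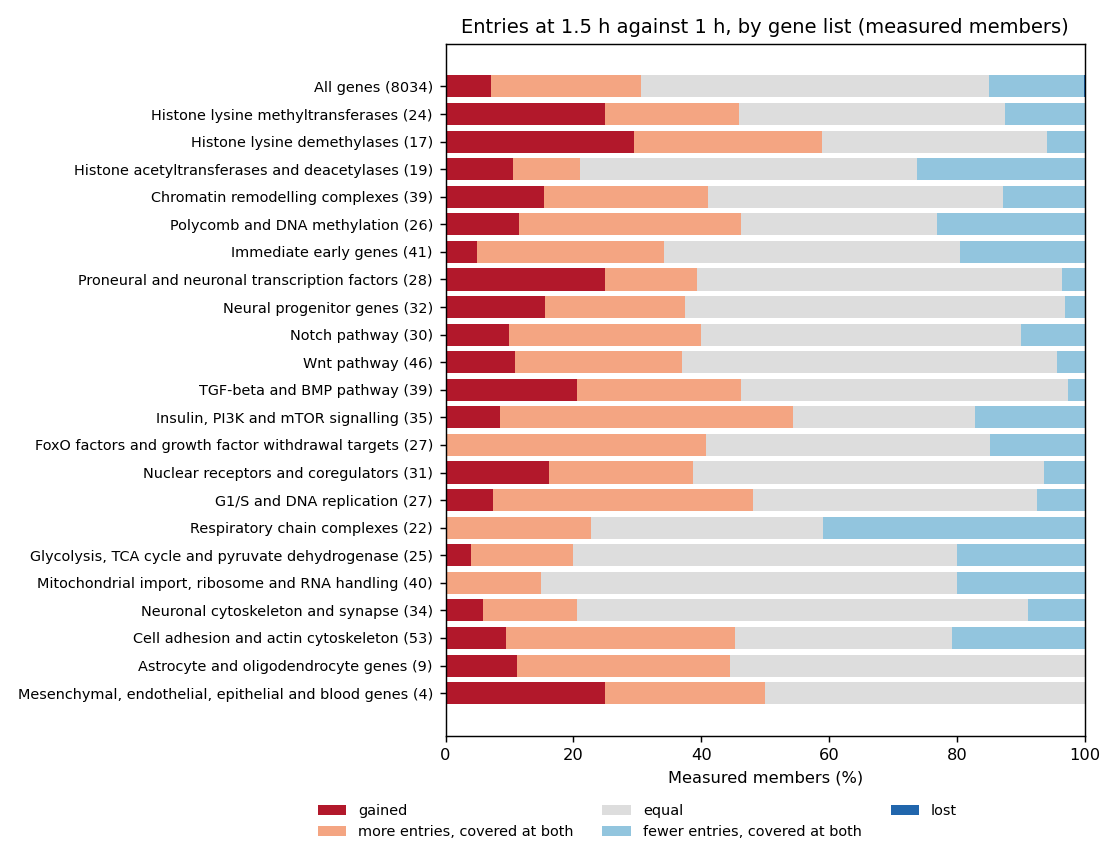
Share of the measured members of each gene list (number in brackets) that were gained, had more, equal or fewer entries, or were lost at 1.5 h against 1 h, with all genes in the top bar. The gained share is 29.4% for lysine demethylases, 25% for lysine methyltransferases and for proneural factors and 20.5% for the TGF-beta and BMP list, against 7.11% of all genes. It is also 25% for the mesenchymal, endothelial, epithelial and blood list, which is 1 of 4 genes. Only genes uncovered at 1 h can be gained. Of the 28 proneural genes 18 were uncovered, and 38.9% of these were gained, against 25.8% of all 2217 uncovered genes.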

How the data were processed

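The deposited table holds 1 score per site and library, a whole number from 0 to 10, in columns named after BED files per the file headers. It was read here as the number of BED entries over the site, an inference from the values: at 1 h 89.4% and at 1.5 h 94.9% of neighbouring site pairs within 200 bp with an entry held equal numbers. It is no read count, so a 0 does not show closed chromatin. Per the submitters' processing notes the tools were Bowtie2, MACS2 and deepTools and the build GRCm38 (mm10), with no versions. For the transposase offset, duplicates and peak thresholds, the settings are not given in the sources used.

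Columns were matched to times by name. Each gene was represented by the site whose mean over all 5 times was highest. Gains, losses, log2(entries + 1) differences (pseudocount 1) and positions were computed in Python 3.11.15 with pandas 2.3.3, and the counting was tested on simulated data. Of 8034 genes, 5945 had a RefSeq window. The 22 gene lists and all rules were chosen with earlier results of these data known. Named genes were the 10 with most entries among first gains, among regained and among lost genes, the 8 highest and 8 lowest ratios among covered genes, ties ordered by the sum over the 3 other libraries, and the list members that differed most; symbols of Gm or Rik form and Galnt2l, attached to 394 sites, were left out. Shares have Wilson 95% intervals for counting error only. Some members of the lists are not reported here by name.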

Additional observations from a re-analysis of the deposited data

How the results depend on the processing

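No paired analysis was possible because each time had 1 library, and for the same reason none could be left out. Of 47 recomputed values, 28 stayed within 1.5 times the reported count or within the interval of the reported share, and gains exceeded losses, and higher genes lower ones, under every setting tried, except that scaling turned the direction among genes covered at both times, from 300 higher and 79 lower to 37 and 206. Sites gained numbered 619 and 967 when sites within 500 and 200 bp were merged and 3514 within 1000 bp of a 5′ end, against 5516. Sites lost numbered 21 and 28 when merged, 41 near a 5′ end, 20 with 2 or more entries at 1 h and 1753 with 2 entries needed at 1.5 h only, against 62. Genes gained were 120 among those with 1 site, against 571. Genes lost were 9 at the site nearest the 5′ end, 5 with 2 or more entries and 9 among genes with 1 site, against 16. After merging, 39.6% of gained regions were covered at 0 h and 38.1% of lost regions uncovered there, against 17.1% and 58.1% of sites. Genes at least 2-fold higher were 294 and lower 42 when genes whose mean lay below that of the median gene were left out, and 442 and 222 after scaling to equal totals, against 871 and 95. Genes with any more entries were 1510 under that filter, against 2458. Merging, filters and restriction to some sites leave fewer units to count. Of the 1753 sites lost under unequal thresholds, 991 held 1 entry at both times. After scaling, a gain from 0 to 1 entry is no longer 2-fold, and 166 gained genes held 1 entry at 1.5 h. The cause of the remaining shifts was not tested. The site within 1000 bp, single-site, unequal-threshold and list settings were chosen after seeing the data. Read depth is unknown, so no precision can be given for a single value.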

Other observations

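Gained sites were spread over the genome. The gained share per chromosome lay between 12.0% on chromosome 16 and 19.3% on chromosome 3, beside 15.9% of all sites, leaving out the Y chromosome, where none of 25 sites was gained. Of the 762 sites with no gene symbol, 47 were gained (6.17%) and 2 lost, and of the 33952 with a symbol 5469 were gained (16.1%). Among genes with 1 listed site 4.61% were gained, with 2 to 5 sites 7.34%, and with more than 5 sites 10.0%. Of the 571 gained genes, 57 had symbols of the Gm or Rik form.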
